A study of Mus musculus with 20 samples.

Results

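The immediate early genes Fos, Fosb, Jun, Junb, Egr1, Ier2, Atf3 and Nr4a1 together with Thbs1 and F3, 10 genes in all, were followed through the first 14 days of high-fat feeding in mouse epididymal fat. These 10 are rows of a table of 39179 genes, and all 10 were among the 15254 genes with enough reads to be tested. They were chosen by name with earlier results of these data known, among them a low level of Thbs1 on day 2, so their levels and changes are given as a description and carry no p-value. The samples were adipose tissue, epididymal fat by the extraction protocol, of male C57BL6/J mice, an inbred laboratory strain with no engineered allele named. The control group ate normal chow (day 0), and the others had eaten a high-fat diet in its place for the last 2, 4, 6 or 14 days. Each of the 5 groups held 4 libraries, which the submitters call biological replicates. The age of the mice, the composition of the diet and the hour and manner of tissue collection are not given in the sources used here.

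Immediate early genes are transcribed within minutes of a stimulus, from factors already present in the cell and without new protein synthesis, and their messages are short-lived. Growth factors, cytokines, stretch, injury and handling of tissue all induce them, largely through kinase cascades that end on serum response factor with its ternary complex partners and on CREB. Fos, Fosb, Jun, Junb and Atf3 encode basic leucine zipper proteins that pair to form AP-1 and related dimers, Egr1 and Nr4a1 encode a zinc finger factor and an orphan nuclear receptor, and Ier2 encodes a small nuclear protein. Thbs1 encodes thrombospondin 1, a secreted matrix protein that binds CD36 and CD47 and can activate latent TGF-beta. F3 encodes tissue factor, the membrane receptor that starts the extrinsic pathway of blood coagulation. Both are known serum-inducible genes in cultured cells. In fat depots, early genes are known to respond to tissue dissociation as well as to feeding and hormones.

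Promoter sequence for 7 of the 10 genes was found in RefSeq (build GRCm38.p6); Egr1, Ier2 and Thbs1 are named only. The 250 bases before each start were searched on both strands for a serum response CArG box, for the full cyclic AMP response element (TGACGT followed by CA), for its core TGACGT alone, and for the AP-1 site TGACTCA or TGAGTCA. The core is contained in the full element, and it was added after the full element had matched in none of the 7. The CArG box occurred in 1.47% of 32851 promoters of the same length and in 0 of the 7, and the full element in 1.55% and in 0 of the 7. The core occurred in 6.47% of promoters and in 2 of the 7, Fos and Atf3, and the AP-1 site in 4.46% and in 1 of the 7, F3. The 150 bases before the start of these 3 genes are shown because they hold the matches, with the matching letters in capitals, 5′ to 3′ on the strand of the gene: Fos at chr12:85473740-85473889 on the plus strand, Atf3 at chr1:191183334-191183483 on the minus strand and F3 at chr3:121723387-121723536 on the plus strand.
Fos: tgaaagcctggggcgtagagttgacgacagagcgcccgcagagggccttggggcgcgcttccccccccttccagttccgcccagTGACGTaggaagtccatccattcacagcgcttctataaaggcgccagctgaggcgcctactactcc
Atf3: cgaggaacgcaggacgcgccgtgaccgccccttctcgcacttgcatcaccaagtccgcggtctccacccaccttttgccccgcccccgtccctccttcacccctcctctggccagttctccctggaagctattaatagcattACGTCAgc
F3: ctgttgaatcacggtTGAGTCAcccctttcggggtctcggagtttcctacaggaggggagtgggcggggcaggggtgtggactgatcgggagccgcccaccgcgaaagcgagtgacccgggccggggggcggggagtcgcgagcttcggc
The core lay 66 to 61 bases before the start of Fos and, on the opposite strand, 8 to 3 bases before the start of Atf3. The AP-1 letters of F3 lay 135 to 129 bases before its start. A match is a description of these letters only, and genes without one may carry such sites outside the window searched.

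Levels are given in CPM, the common unit of reads scaled to the depth of their library, with library totals adjusted by TMM factors. Library totals ran from 1916829 to 38832429 reads, and reads on tested genes made up at least 99.51% of each. A pair of libraries stood apart and is called doubted here, though both count as replicates unless stated. The shallowest was day 2 replicate 1, where Fosb rested on 3 reads, Fos on 5, Atf3 on 6 and Nr4a1 on 11. Day 0 replicate 4 carried markers of epididymal epithelium at a summed 313 CPM with 8 of 12 markers detected, against 1.47 to 19.1 CPM in the other 19 libraries, and Adipoq, Plin1 and the other adipocyte markers were detected in every library. In whole tissue, fewer cells of a type and less RNA per cell cannot be told apart.

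Levels between genes were compared per kilobase of exon. Thbs1 averaged 28.3 CPM per kb over the 20 libraries, ahead of F3 at 18.8, Jun at 17.7, Ier2 at 10.9, Junb at 7.61 and Egr1 at 6.76. Fos at 3.99, Atf3 at 2.83, Nr4a1 at 2.54 and Fosb at 0.895 CPM per kb were the low end. The ranges over libraries of every pair of neighbours in this order overlapped; Thbs1 alone ran from 3.84 to 122 CPM per kb and F3 from 8.35 to 38.4. Spread between libraries of the same group differed greatly among the 10 genes. The SD of log2 CPM within groups was 1.18 for Thbs1, 1.13 for Fosb, 0.93 for Fos and 0.68 for Egr1, beside a median of 0.25 over all tested genes. These SDs stood at percentiles 98.9, 98.5, 95.9 and 88.4 of all tested genes. Atf3 (0.42), F3 (0.41), Junb (0.40), Jun (0.36) and Nr4a1 (0.36) lay between percentiles 65.1 and 73.2, and Ier2 (0.27) at percentile 53.3.

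**Figure D1:**
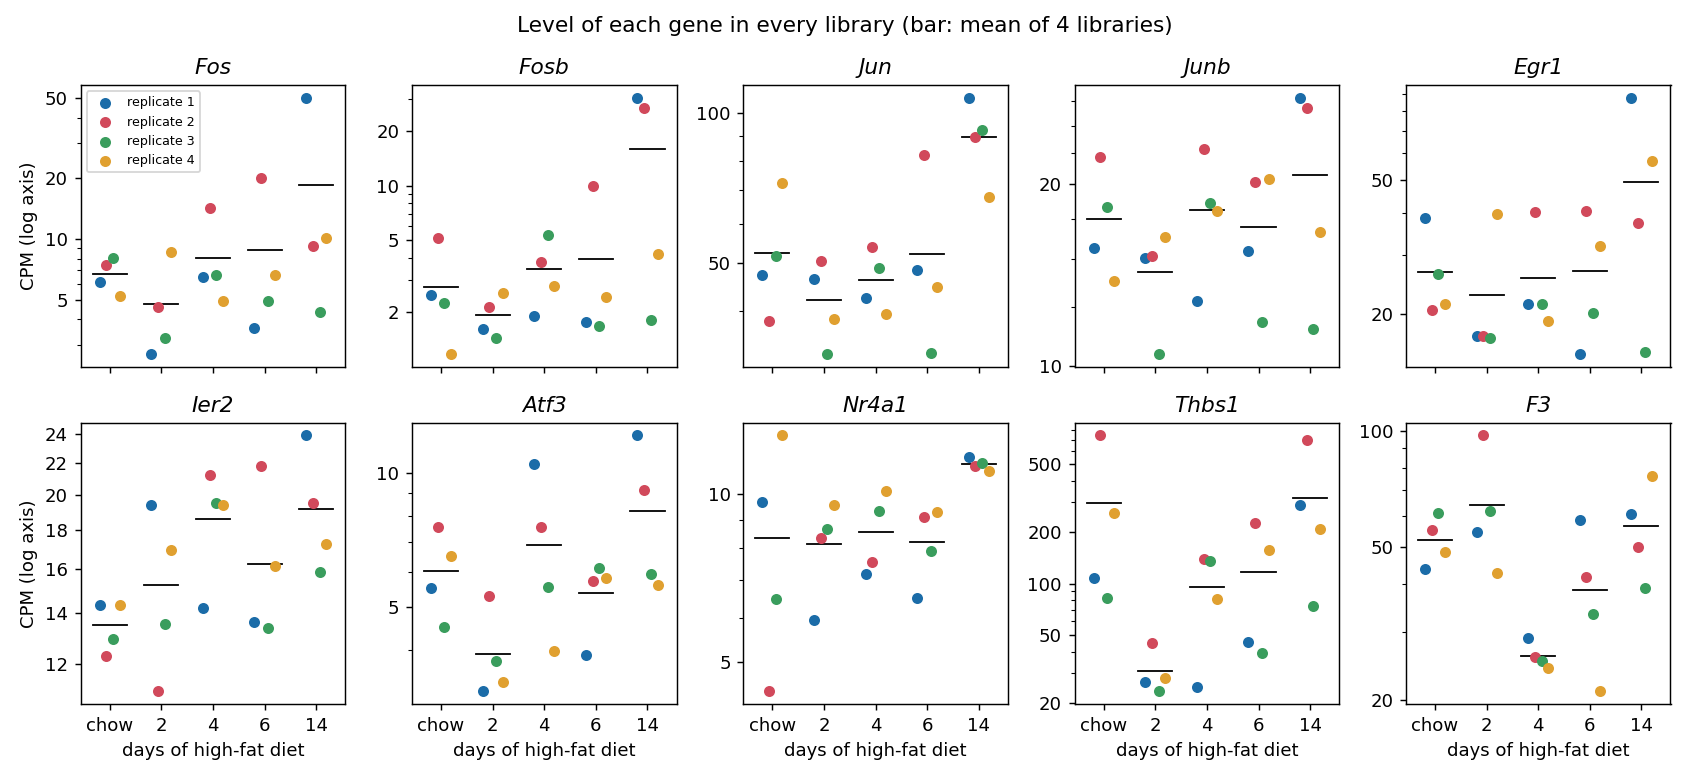
CPM (log axis) of each of the 10 genes in all 20 libraries by day of high-fat diet, 1 point per library coloured by replicate number, with the mean of 4 libraries as a bar. Thbs1 is low in all 4 day 2 libraries (23.3 to 45.1 CPM, below every chow library), F3 is low and tight on day 4 (24.3 to 28.9 CPM), and day 14 replicate 1 has the highest Fos, 50.2 CPM.

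Fos, the partner that gives AP-1 dimers their stability on DNA, was low in most libraries and high in a few. It stood at 6.11, 7.44, 8.07 and 5.23 CPM in the 4 chow libraries, in replicate order, and at 2.70, 4.58, 3.22 and 8.65 CPM on day 2. On day 4 it stood at 6.49, 14.3, 6.66 and 4.90 CPM, on day 6 at 3.64, 20.1, 4.93 and 6.62 CPM, and on day 14 at 50.2, 9.27, 4.33 and 10.1 CPM. A single library on each of days 2, 4, 6 and 14 stood well above the rest of its group, and every high-fat group overlapped chow. The fitted log2 change against chow was -0.43 ± 0.67 (SE), 0.21 ± 0.66, 0.41 ± 0.62 and 1.51 ± 0.62 for days 2, 4, 6 and 14. Without day 14 replicate 1 the day 14 change was 0.24, and without day 6 replicate 2 the day 6 change was -0.40. In day 14 replicate 1, summed T and B cell markers were at 200 CPM, against 19.3 to 45.5 CPM in the other 3 libraries of that day. All libraries of that day had 10 of 10 markers detected, and Igkc alone averaged 58.4 ± 72.7 CPM (SD, n = 4). The part of these markers in the result was not tested.

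Fosb, a Fos paralogue with the same leucine zipper dimerisation, had 2 high libraries on day 14. It stood at 2.501, 5.11, 2.25 and 1.18 CPM on chow, at 1.62, 2.14, 1.44 and 2.57 CPM on day 2 and at 1.91, 3.78, 5.33 and 2.81 CPM on day 4. Up to that point no library exceeded 5.33 CPM. On day 6 it stood at 1.76, 9.92, 1.67 and 2.45 CPM, and on day 14 at 30.5, 26.9, 1.82 and 4.20 CPM. The day 14 group thus spanned 16.7-fold and included a library below 3 of the 4 chow libraries. The log2 change was -0.41 ± 0.80, 0.32 ± 0.78, 0.63 ± 0.72 and 2.64 ± 0.73 for days 2, 4, 6 and 14. With 1 library left out at a time, the day 14 value ran from 2.11 to 3.05.

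Junb, an AP-1 subunit with weaker transactivation than Jun, moved in the same libraries as Fosb over a narrower range. Chow libraries held 15.6, 22.2, 18.3 and 13.8 CPM, day 2 libraries 15.1, 15.2, 10.5 and 16.4 CPM, and day 4 libraries 12.8, 22.9, 18.6 and 18.05 CPM. Day 6 libraries held 15.5, 20.2, 11.8 and 20.4 CPM, and day 14 libraries 27.8, 26.8, 11.5 and 16.6 CPM. All 4 high-fat groups overlapped chow, and the log2 changes were -0.30 ± 0.26, 0.04 ± 0.26, -0.02 ± 0.25 and 0.28 ± 0.25 in order of day.

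Jun, the founding AP-1 subunit and target of the JNK kinases, had its highest group mean on day 14. It stood at 47.2, 38.2, 51.8 and 72.4 CPM on chow, at 46.4, 50.4, 32.9 and 38.6 CPM on day 2 and at 42.6, 53.8, 48.8 and 39.5 CPM on day 4. On day 6 it stood at 48.3, 82.4, 33.02 and 44.8 CPM, and on day 14 at 107, 89.7, 92.5 and 67.9 CPM. Of the day 14 libraries 3 exceeded every chow library and 1 lay below the highest of them, day 0 replicate 4. The log2 change was -0.34 ± 0.24, -0.20 ± 0.24, -0.01 ± 0.23 and 0.77 ± 0.23 for days 2, 4, 6 and 14. Without day 0 replicate 4 the day 14 value was 0.96, and over all single libraries left out it ran from 0.65 to 0.96. It was 0.66 with library totals alone as the scale.

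Atf3, a stress-induced member of the ATF and CREB family that represses as a homodimer, was low throughout. It stood at 5.53, 7.56, 4.50 and 6.51 CPM on chow, at 3.24, 5.30, 3.79 and 3.39 CPM on day 2, and at 10.5, 7.57, 5.55 and 3.99 CPM on day 4. Day 6 libraries were at 3.91, 5.73, 6.14 and 5.81 CPM, and day 14 libraries at 12.2, 9.14, 5.93 and 5.60 CPM. On day 2, 3 of 4 libraries lay below all chow libraries, and 2 libraries on each of days 4 and 14 lay above them. The log2 changes were -0.55 ± 0.30, 0.22 ± 0.29, -0.15 ± 0.28 and 0.49 ± 0.28 in order of day.

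Egr1, a zinc finger factor that binds GC-rich promoter elements, showed 1 high library in several groups. Chow libraries held 38.6, 20.6, 26.3 and 21.4 CPM, day 2 libraries 17.3, 17.3, 16.98 and 39.6 CPM, and day 4 libraries 21.5, 40.1, 21.5 and 19.1 CPM. On days 2 and 4 the other 3 libraries were nearly level and the high one was about the level of the highest chow library. Day 6 libraries held 15.3, 40.4, 20.2 and 32.0 CPM and day 14 libraries 87.7, 37.4, 15.5 and 57.1 CPM. The log2 change was -0.22 ± 0.44, -0.10 ± 0.43, 0.02 ± 0.42 and 0.89 ± 0.42 for days 2, 4, 6 and 14, where it was 0.44 without replicate 1.

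Nr4a1, an orphan nuclear receptor of the NR4A family, differed little between groups up to day 6. It stood at 9.71, 4.42, 6.48 and 12.8 CPM on chow, at 5.93, 8.36, 8.68 and 9.59 CPM on day 2 and at 7.18, 7.57, 9.32 and 10.1 CPM on day 4. Day 6 libraries held 6.51, 9.09, 7.91 and 9.29 CPM. The 4 day 14 libraries were nearly identical at 11.7, 11.3, 11.4 and 11.04 CPM, and only day 0 replicate 4 exceeded them. The log2 changes were -0.01 ± 0.23, 0.01 ± 0.23, -0.05 ± 0.22 and 0.42 ± 0.23, and without day 0 replicate 4 the day 14 value was 0.70.

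Ier2, the least variable of the 10 within groups, had its lowest group mean on chow. It stood at 14.4, 12.3, 12.96 and 14.3 CPM on chow, at 19.4, 11.1, 13.6 and 16.9 CPM on day 2 and at 14.2, 21.2, 19.5 and 19.4 CPM on day 4. Day 6 libraries held 13.6, 21.8, 13.4 and 16.1 CPM and day 14 libraries 23.9, 19.5, 15.8 and 17.3 CPM. All day 14 libraries lay above all chow libraries, as did 3 of 4 on day 4. The log2 changes were 0.11 ± 0.19, 0.45 ± 0.18, 0.27 ± 0.18 and 0.51 ± 0.18 in order of day.

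Thbs1 had the widest range of the 10 genes and its lowest group mean on day 2. The 4 chow libraries held 107.5, 740.1, 82.6 and 260.1 CPM, and the 4 day 2 libraries 26.4, 45.1, 23.3 and 28.1 CPM. The day 2 group thus lay wholly below chow, while chow itself spanned 8.96-fold. On day 4 Thbs1 stood at 24.7, 140.4, 136.3 and 81.3 CPM, on day 6 at 45.5, 227.6, 39.3 and 156.6 CPM, and on day 14 at 290, 698.1, 73.6 and 210 CPM. In order of group mean, day 14 (318 ± 269 CPM, SD, n = 4) and chow (298 ± 305) did not differ beyond their spread, nor did chow and day 6 (117 ± 91.2) or day 6 and day 4 (95.7 ± 54.4), and day 2 (30.7 ± 9.79) came last. The log2 change was -3.25 ± 0.81, -1.65 ± 0.75, -1.33 ± 0.74 and 0.10 ± 0.73 for days 2, 4, 6 and 14. Without day 0 replicate 2, the chow library at 740.1 CPM, these became -2.26, -0.69, -0.35 and 1.09, and without day 14 replicate 2 the day 14 value was -0.63.

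With 1 library left out at a time, the day 2 log2 change of Thbs1 ran from -3.56 to -2.26, and it was -3.24 without both doubted libraries. Markers of mesothelium, the cell sheet that covers the fat pad, were also lower on day 2. On days 6 and 14 their median change was -0.88 and -0.76 (log2), beside -1.33 ± 0.74 and 0.10 ± 0.73 for Thbs1. Without day 0 replicate 2 the Thbs1 values were -0.35 and 1.09. Of 15 mesothelial markers, 14 fell on day 2 and 14 on day 4 by edgeR's quasi-likelihood test with Benjamini-Hochberg adjustment, with median log2 changes of -1.36 and -1.75. Of all tested genes, 1.96% and 17.3% were called lower on those days. Without both doubted libraries, where no such share was taken, the same test called 14 of the 15 markers on day 4 and 0 on day 2. Their summed level was 587 to 809 CPM on chow and, in order of day, 212 to 272, 154 to 367, 264 to 441 and 254 to 539 CPM under high-fat diet, with at least 14 of 15 detected in every library. Msln, a mesothelial surface protein, fell by 2.10 ± 0.41 (log2, adjusted p = 0.0142 by the same test) on day 2, with a change of -2.12 and an adjusted p of 0.120 without both doubted libraries. The highest sum, 809 CPM, was in the chow library with the highest Thbs1. Between libraries of a group, Thbs1 and the mesothelial sum had a Pearson r of 0.38 (Spearman rho 0.37) over 20 libraries. For the sum of 8 genes responsive to glucocorticoids and fasting, the r with Thbs1 within groups was 0.71 (rho 0.60). Their sum was 1650 CPM in the chow library with 740.1 CPM of Thbs1 and 750, 823 and 986 CPM in the other chow libraries. In order of day it was 588 to 1040, 570 to 781, 813 to 1310 and 916 to 1410 CPM under high-fat diet. The sum over the list of other early response genes, in which abundant genes weigh most, had an r of 0.90 (rho 0.93) with Thbs1. Smooth muscle markers had 0.51 (rho 0.51), endothelial markers 0.41 (rho 0.36) and fibroblast and progenitor markers 0.40 (rho 0.44). The part of these genes and markers in the Thbs1 result was not tested.

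F3 differed in course from the early genes. Chow libraries held 43.8, 55.1, 61.2 and 48.5 CPM, day 2 libraries 54.5, 97.2, 61.8 and 42.8 CPM, and day 4 libraries 28.9, 25.8, 25.3 and 24.3 CPM. All 4 day 4 libraries lay below all chow and day 2 libraries and spanned only 1.19-fold. Day 6 libraries held 58.6, 41.8, 33.4 and 21.1 CPM and day 14 libraries 60.8, 50.02, 39.1 and 76.3 CPM. The group means stood in the order day 2 (64.1 ± 23.4 CPM, SD, n = 4), day 14 (56.6 ± 15.9), chow (52.2 ± 7.59), day 6 (38.7 ± 15.8) and day 4 (26.1 ± 1.99); each neighbouring pair down to day 6 overlapped in its SDs, as did days 6 and 4. The log2 change was 0.32 ± 0.27, -1.0 ± 0.28, -0.43 ± 0.26 and 0.11 ± 0.27 for days 2, 4, 6 and 14. With 1 library left out at a time the day 4 change ran from -1.08 to -0.91, and it was -1.03 without both doubted libraries.

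**Figure D2:**
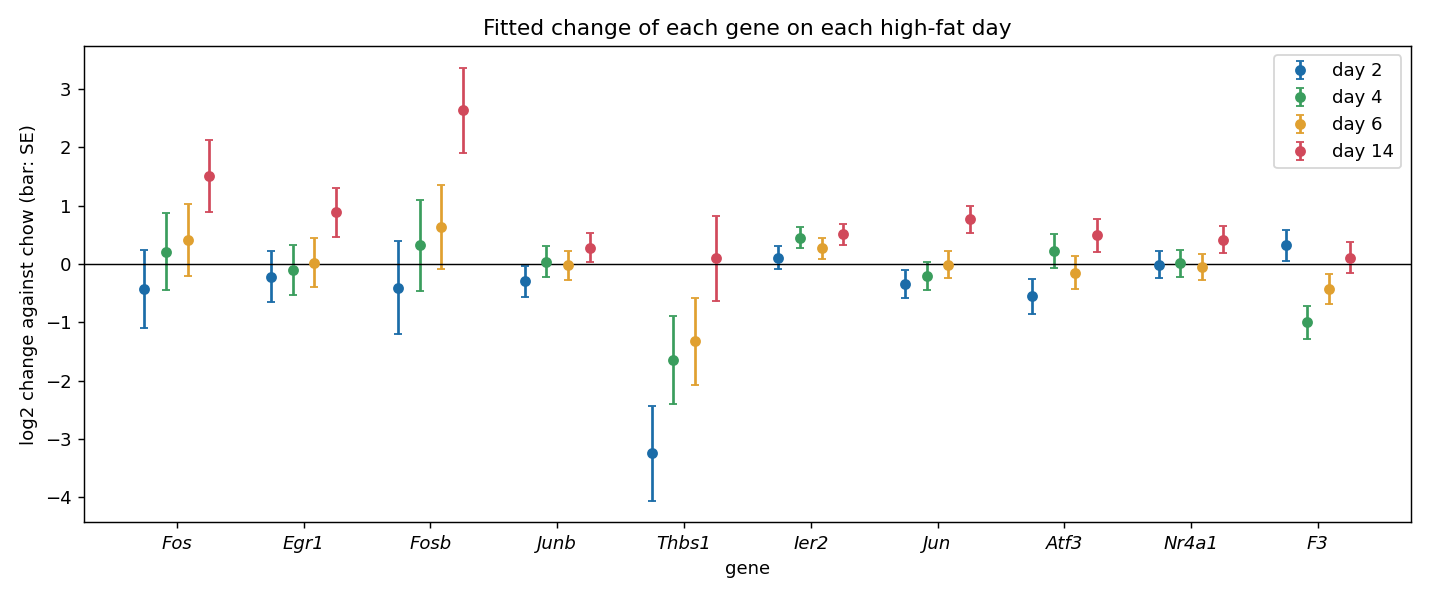
Fitted log2 change against chow for each gene on days 2, 4, 6 and 14, with the standard error as a bar; 0 is the chow level. Thbs1 on day 2 (-3.25) and Fosb on day 14 (2.64) lie farthest from 0, and all 10 genes lie above 0 on day 14.

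Counted by comparison, the 10 genes gave few calls at an adjusted p under 0.05, all comparisons sharing the same 4 chow libraries. Since the choice of genes drew on these contrasts, nothing is read from the counts. On day 2, 1 of 10 was called (Thbs1, lower), beside 4.39% of all tested genes (2.43% higher, 1.96% lower), and 1 of 10 did not overlap chow, beside 12.7%. On day 4, 1 of 10 was called (F3, lower), beside 35.3% (18% higher, 17.3% lower), and 1 of 10 did not overlap, beside 30.3%. On day 6, edgeR called 0 of 10, beside 3.45% (1.99% higher, 1.46% lower); 0 of 10 had an unadjusted p under 0.05, DESeq2 and limma-voom also called 0, and 0 of 10 did not overlap, beside 11.9%. On day 14, edgeR called 0 of 10, beside 1.18% (0.878% higher, 0.302% lower). An unadjusted p under 0.05 was found for 5 of 10, DESeq2 called 2 (Fosb and Jun) and limma-voom 0. The shares of called genes given here are those of edgeR's adjusted calls. Shares under an unadjusted p, by DESeq2 or by limma-voom were not taken, so those counts have no like share beside them. Ier2 was the 1 of 10 that did not overlap chow on day 14, beside 9.93% of all tested genes. Any difference between the 5 groups was called for 4 of 10 (Fosb, Jun, Thbs1 and F3), beside 19.6%. The median log2 change of the 10 was -0.32, 0.02, -0.02 and 0.50 in order of day, beside -0.03, -0.02, -0.01 and -0.01 for all tested genes, and 2, 6, 4 and 10 of the 10 lay above 0.

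Whether the genes vary together between mice on the same diet was described by taking each library's log2 CPM minus the mean of its own group. The libraries share their depth and scaling across genes, and the genes were picked on earlier results from these libraries, so the correlations over 20 libraries have no p. Fos and Egr1 had a Pearson r of 0.86 (Spearman rho 0.80), and Fosb and Junb 0.85 (rho 0.84). Fos and Fosb reached 0.74 (rho 0.69), Fos and Junb 0.67 (rho 0.65), Junb and Egr1 0.60 (rho 0.53) and Fosb and Egr1 0.59 (rho 0.51). The median over these 6 pairs was 0.70. When the 2 libraries farthest from the median of the first gene were left out, r was 0.83 for Fos and Egr1, 0.77 for Fosb and Junb and 0.61 for Fos and Junb. For Fos and Fosb r was then 0.56, for Junb and Egr1 0.42 and for Fosb and Egr1 0.27. The 2 libraries left out for Fosb and Egr1 were day 14 replicates 1 and 3. Without the whole day 14 group, r for Fosb and Egr1 was 0.49.

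**Figure D3:**
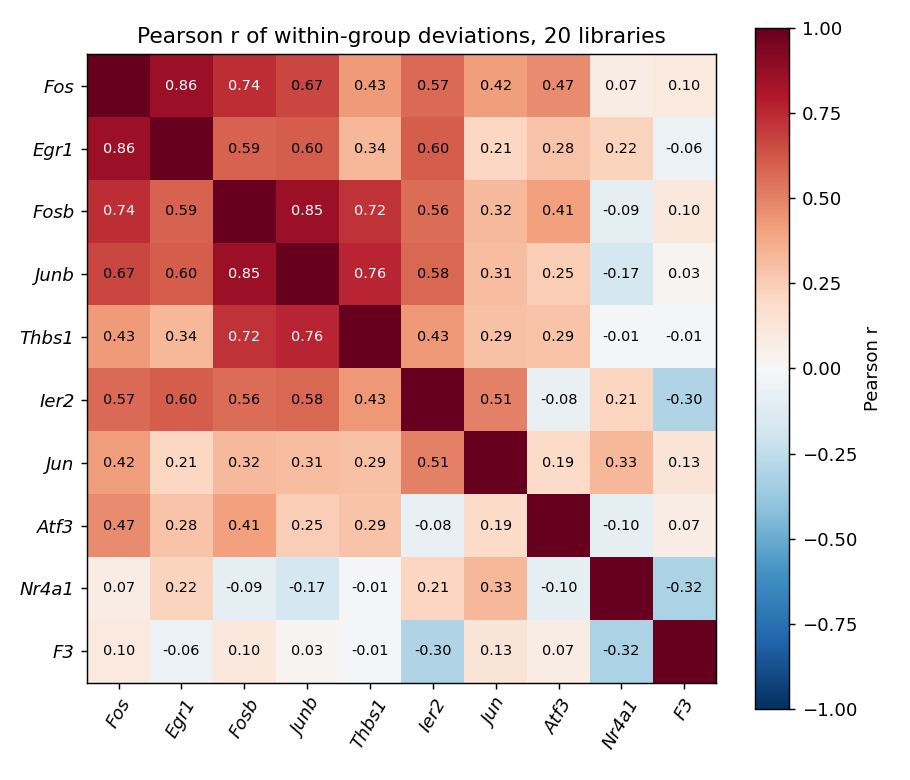
Pearson r between each 2 of the 10 genes over 20 libraries, each taken as log2 CPM minus its group mean; red is positive and blue negative. Fos, Egr1, Fosb and Junb form a red block (0.59 to 0.86), Thbs1 joins it through Fosb and Junb, and the Nr4a1 and F3 rows are pale.

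Thbs1 varied with Junb, at r 0.76 (rho 0.78), and with Fosb, at 0.72 (rho 0.68), and less closely with Fos (0.43, rho 0.46), Ier2 (0.43, rho 0.46) and Egr1 (0.34, rho 0.31). Without the 2 libraries farthest from the median of Junb, r with Junb was 0.68. Without the 2 farthest for Fosb, r with Fosb was 0.72. Day 0 replicate 2, among the 2 farthest for Thbs1 itself, was kept in both. Among 13642 genes with a symbol and a mean of at least 1 CPM, Junb was at rank 48 and Fosb at rank 103 by r to Thbs1. Ier2 correlated with Egr1 (0.60, rho 0.61), Junb (0.58, rho 0.55), Fos (0.57, rho 0.43), Fosb (0.56, rho 0.56) and Jun (0.51, rho 0.47). Of these the r with Fos was 0.30 without the 2 libraries farthest for Fos, and that with Jun 0.28 without the 2 farthest for Jun. Jun otherwise reached at most 0.42, with Fos, which became 0.07 without the 2 libraries farthest for Fos. Atf3 reached 0.47 with Fos and -0.08 with Ier2. Nr4a1 and F3 stood outside, with a median r to the other 9 genes of -0.01 and 0.03, against 0.58 for Junb and 0.56 for Fosb. Their r with each other was -0.32 (rho -0.42).

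Over all 45 pairs the median r was 0.29 (-0.32 to 0.86), 36 pairs were above 0 and 13 above 0.5. The median was 0.23 to 0.37 with 1 library left out, 0.26 without the day 14 group and 0.34 without both doubted libraries. Without day 14 replicate 1 and day 6 replicate 2, the 2 libraries with the highest mean of the 10 genes, it was 0.12; this setting was chosen after the values were seen. In the same setting the median of the 6 pairs among Fos, Fosb, Junb and Egr1 was 0.55, and Thbs1 kept r of 0.78 with Junb and 0.74 with Fosb.

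**Figure D4:**
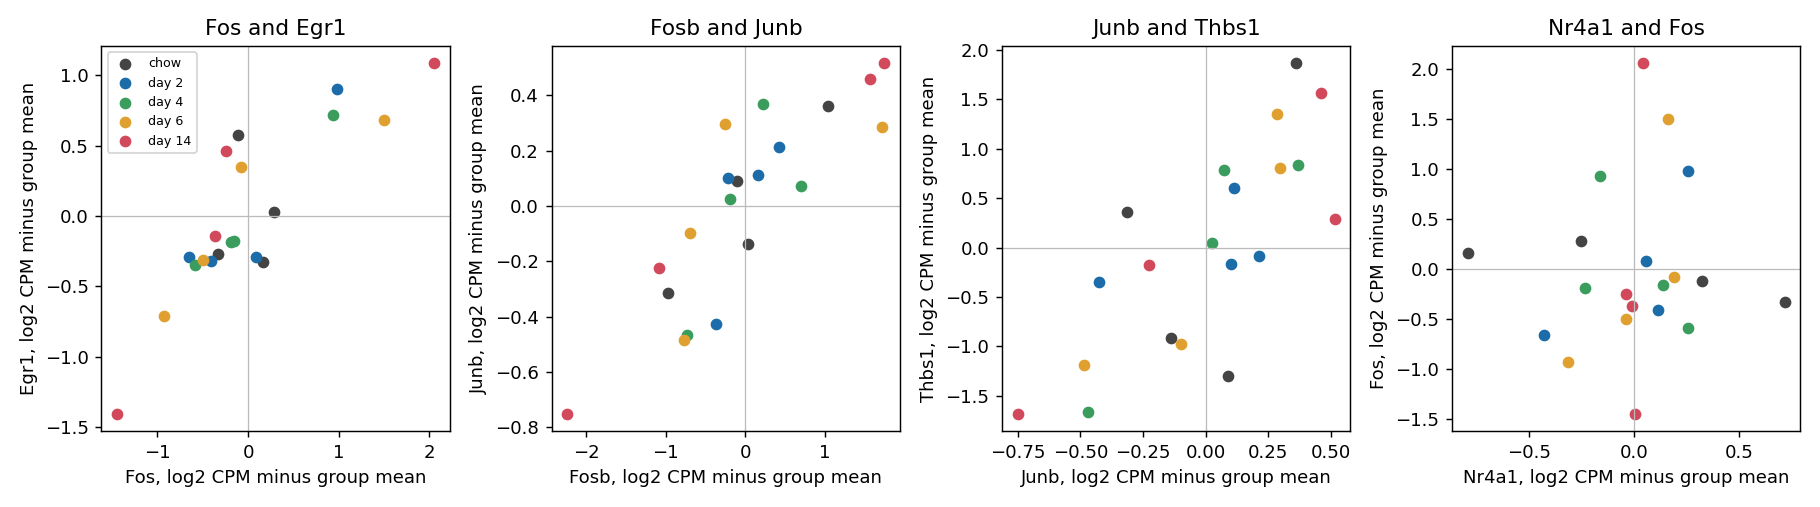
Deviations from the group mean (log2 CPM) in 20 libraries, coloured by group, for 4 pairs of genes. Fos with Egr1 (r 0.86), Fosb with Junb (0.85) and Junb with Thbs1 (0.76) run along a rising line, and Nr4a1 with Fos (0.07) does not.

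The shared pattern was carried by particular libraries. Day 14 replicate 1 had the highest value of its group for 8 of 10 genes, all but Thbs1 and F3, and lay above the group mean for all 10. Day 6 replicate 2 was highest for 6 genes (Fos, Fosb, Jun, Egr1, Ier2 and Thbs1) and also above the group mean for all 10. Day 4 replicate 2 was highest for 6 (Fos, Jun, Junb, Egr1, Ier2 and Thbs1). Day 2 replicate 4 was highest for 5 (Fos, Fosb, Junb, Egr1 and Nr4a1). At the other end, day 14 replicate 3 was lowest of its group for 7 genes, namely Fos, Fosb, Junb, Egr1, Ier2, Thbs1 and F3. Chow had no such library: day 0 replicate 2 was highest for Fosb, Junb, Atf3 and Thbs1 and lowest for Jun, Egr1, Ier2 and Nr4a1.

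**Figure D5:**
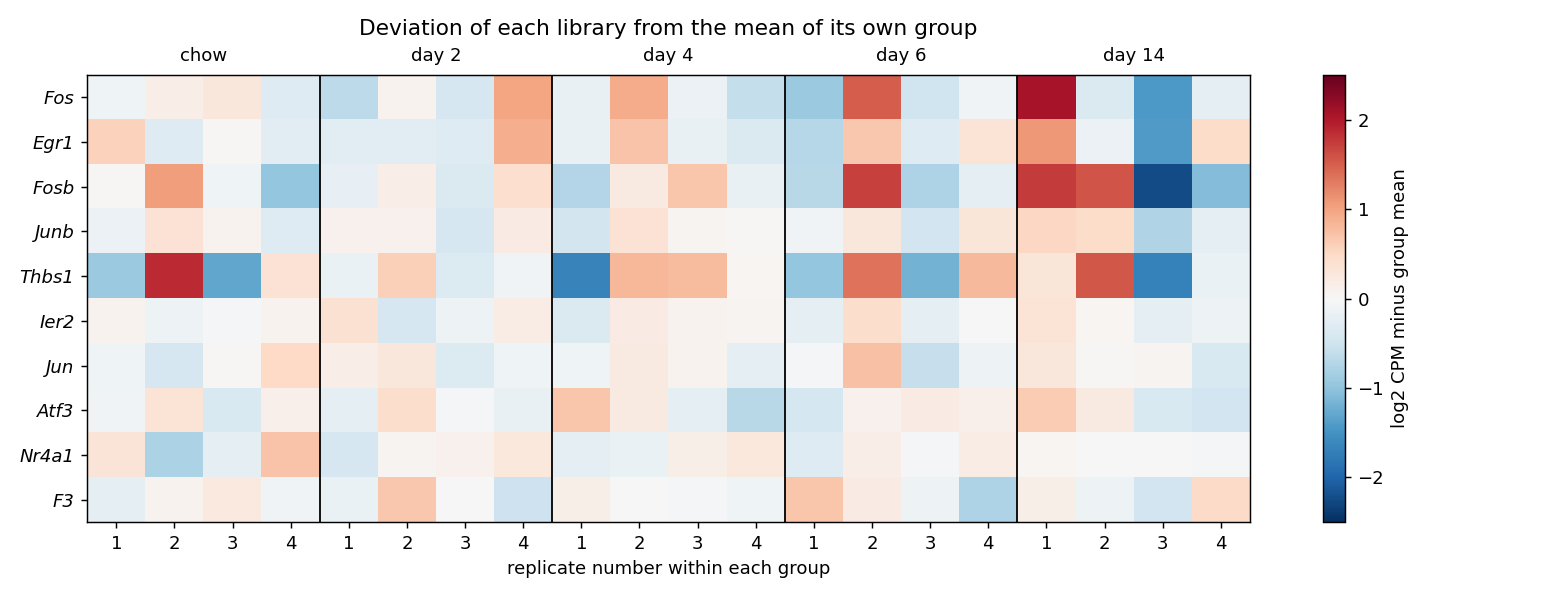
Log2 CPM minus the group mean for each gene (rows) in each of the 20 libraries (columns, by group and replicate number); red is above and blue below the group mean. Day 14 replicate 1 and day 6 replicate 2 are red in all 10 rows, and day 14 replicate 3 is blue in 8.

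Depth, library number and marker sums were set beside this pattern. The r of each gene with log2 library total, both within groups, ran from -0.24 (Ier2) to 0.41 (Nr4a1), and was between -0.11 and 0.18 for Fos, Fosb, Junb, Egr1 and Thbs1. The number in the submitters' library names, whose meaning the labels do not give, had an r of 0.53 with Nr4a1, -0.44 with Atf3, -0.34 with Fosb and -0.14 with Fos. The summed level of 10 fibroblast and progenitor markers, all detected in every library, had an r of 0.50 (rho 0.54) with the mean of the 10 genes, and 0.57 (rho 0.61) with Junb. That sum was 5280 and 5340 CPM in day 14 replicates 1 and 2 and 3600 and 3800 CPM in replicates 3 and 4. The sum of 10 adipocyte markers had an r of -0.38 with the mean of the 10 genes, mesothelial markers 0.40, smooth muscle markers 0.38 and endothelial markers 0.34. T and B cell markers had 0.31 (rho 0.16), macrophage markers 0.31 (rho 0.31), epididymal epithelium markers 0.35 (rho 0.40) and red cell markers -0.27 (rho -0.22). The glucocorticoid and fasting list had 0.44 (rho 0.46). The part of depth and of these genes and markers in the co-variation was not tested.

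The genes closest to the shared pattern were ranked by r to the mean of the 10 standardised deviations, over 20 libraries. They were Ang (0.85), a secreted ribonuclease; Prrx2 (0.83), a homeobox factor of mesenchyme; Samd4 (0.82); Srpx2 (0.82), a secreted protein; Zscan18 (0.82); Sfrp4 (0.81), a secreted WNT-binding protein; Slc39a13 (0.80), a zinc transporter; Bcl7c (0.80); P4ha1 (0.77), a collagen prolyl hydroxylase subunit; and Cxcl16 (0.75), a chemokine. None was on a list of early genes. Closest to Thbs1 alone were Ppfibp1 (0.89), Ctsl (0.88), the lysosomal protease cathepsin L, Fndc3b (0.86), Il4ra (0.86), an interleukin receptor chain, and Mcf2l (0.85). Among the genes closest to F3 were 4632415L05Rik (0.88), Zbtb26 (0.86), Agt (0.85), angiotensinogen, and Btrc (0.85).

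Other early genes were taken as 3 lists, 83 tested genes in all, chosen on general knowledge of the response but with earlier results of these data known. Their median r to the mean of the 10 genes was 0.27, beside 0.02 for all tested genes other than the 10. A median of this size was not particular to early genes. It was 0.48 for fibroblast and progenitor markers, 0.34 for endothelial and 0.32 for smooth muscle markers, and -0.23 for adipocyte markers. For the other AP-1 family members alone it was 0.14. An r above 0.5 was found for 20 of the 83 (24.1%), beside 5.14% of all. The nearest were Klf4 (0.71, rank 32 of 13632), a zinc finger factor, Dusp6 (0.69), a phosphatase of ERK, Nfkbiz (0.68), a nuclear IκB protein, Klf2 (0.66), Zfp36 (0.63), which destabilises AU-rich messages, Ccn1 (0.62), a matricellular protein, and Socs3 (0.61), a feedback inhibitor of cytokine signalling.

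Against chow, edgeR's quasi-likelihood test with Benjamini-Hochberg adjustment called 3, 28, 3 and 3 of the 83 other early genes in order of day (2 higher and 1 lower, 14 and 14, 1 and 2, and 2 and 1), and 22 in the test of any difference. These were 3.61%, 33.7%, 3.61% and 3.61% of the list, beside 4.39%, 35.3%, 3.45% and 1.18% of all tested genes. For any difference the share was 26.5%, beside 19.6%. Tob1, an antiproliferative gene, rose on day 2 (log2 change 0.72 ± 0.13, adjusted p = 0.00869), on day 4 (0.78 ± 0.13, adjusted p = 0.000977) and on day 6 (0.51 ± 0.13, adjusted p = 0.0431). Nfkbia, the NF-κB inhibitor, fell by 0.71 ± 0.19 on day 2 (adjusted p = 0.0407) and by 0.85 ± 0.19 on day 4 (adjusted p = 0.00300). Sik1, a CREB-induced kinase, fell by 0.92 ± 0.18 on day 4 (adjusted p = 0.00160) and by 0.64 ± 0.17 on day 6 (adjusted p = 0.0463). Ccl7, a monocyte chemoattractant, rose by 2.67 ± 0.57 on day 4 (adjusted p = 0.00272), from 2.06 ± 0.51 to 13.2 ± 8.18 CPM (SD, n = 4). On day 14 Id3, an inhibitor of helix-loop-helix factors, rose (0.85 ± 0.18, adjusted p = 0.0289) and Rgs2, a regulator of G protein signalling, fell by 1.42 ± 0.33 (adjusted p = 0.0428), and on day 6 Gem, a small GTPase, fell by 0.72 ± 0.18 (adjusted p = 0.0436). The direction was thus mixed on each day. Calls of days 2, 6 and 14 were not stable to leaving libraries out. Without both doubted libraries 0 of the 83 were called on these days and 22 on day 4. That fit holds fewer libraries, and the share of all tested genes called in it was not taken. Day 2 changes were then 0.61 for Tob1 (adjusted p = 0.103) and -0.66 for Nfkbia (adjusted p = 0.229). Day 6 changes were 0.49 for Tob1, -0.66 for Gem and -0.57 for Sik1, with adjusted p of 0.134, 0.144 and 0.149, and day 14 changes were 0.68 for Id3 and -1.51 for Rgs2, with adjusted p of 0.0851 and 0.0934. With only the groups compared, the day 6 and day 14 calls were lost as well. Leaving out day 0 replicate 2 or day 0 replicate 4 alone ended each of these day 2, 6 and 14 calls except that of Tob1 on day 2. The day 4 calls of Tob1, Nfkbia, Sik1 and Ccl7 held with each of the 20 libraries left out and without both doubted ones.

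Within the AP-1 family, Atf4, the factor of the integrated stress response, rose on day 2 (log2 change 0.61 ± 0.14, adjusted p = 0.0266 by edgeR's quasi-likelihood test) and on day 4 (0.55 ± 0.14, adjusted p = 0.00787), and Fosl2, a Fos paralogue, rose on day 4 (0.66 ± 0.17, adjusted p = 0.00745). These were the called genes among 11 tested, 1 on day 2 and 2 on day 4, beside 4.39% and 35.3% of all tested genes. The same test called 0 on days 6 and 14, where 2 and 4 had an unadjusted p under 0.05. The shares of all tested genes called on those days by adjusted p were 3.45% and 1.18%. No share was taken for the unadjusted p. Among 6 tested EGR and NR4A relatives, the EGR corepressors Nab1 and Nab2 rose on day 4 (0.55 ± 0.11, adjusted p = 0.00176, and 0.51 ± 0.15, adjusted p = 0.0155). Nab2 also rose on day 14 (0.67 ± 0.15, adjusted p = 0.0353). These calls were 2 of 6 on day 4, a share near the 35.3% of all tested genes, and 1 of 6 on day 14, beside 1.18%. Without both doubted libraries the day 2 change of Atf4 was 0.61 (adjusted p = 0.176) and the day 14 change of Nab2 was 0.74 (adjusted p = 0.0699), and neither was called with only the groups compared or without day 0 replicate 2, 3 or 4 alone. Nab2 on day 4 was not called without day 0 replicate 2 or with library totals alone, and the other day 4 calls named here held with each library left out. Of 21 kinases and transcription factors upstream of early genes, 8 rose and 1 fell on day 4, when 18% of all tested genes were called higher and 17.3% lower, and 4 and 1 without both doubted libraries. Srf, serum response factor, rose by 0.60 ± 0.14 (adjusted p = 0.00467), its partner Elk1 by 0.45 ± 0.12 (adjusted p = 0.00723), and Wwtr1, the coactivator TAZ, by 0.49 ± 0.09 (adjusted p = 0.00141).

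Around Thbs1, 2 of 10 thrombospondin relatives, receptors and partners rose on day 4, Tgfb1 (0.69 ± 0.16, adjusted p = 0.00434 by edgeR's quasi-likelihood test) and Calr (0.30 ± 0.09, adjusted p = 0.0186), beside 35.3% of all tested genes called on that day. Without both doubted libraries the change of Calr was 0.23 (adjusted p = 0.0801), and leaving out day 0 replicate 4 or day 4 replicate 2 alone ended its call. The Thbs1 receptor Cd36 averaged 4210 ± 646 CPM on chow and 4630 ± 168 CPM on day 2 (log2 change 0.14 ± 0.15, adjusted p = 0.588). Around F3, 5 of 15 genes of coagulation and plasminogen activation were called on day 4, a share near that of all tested genes (35.3%), with Plaur (0.84 ± 0.26, adjusted p = 0.0178), Tfpi2 (1.24 ± 0.39, adjusted p = 0.0202) and F2r (0.90 ± 0.30, adjusted p = 0.0287) higher. Tfpi2 is related to the inhibitor of tissue factor, Plaur binds urokinase and F2r is the thrombin receptor. Thbd, thrombomodulin, fell by 1.01 ± 0.32 on the same day (adjusted p = 0.0211), from 327 ± 96.3 to 161 ± 87.3 CPM. Plat, tissue plasminogen activator, fell by 0.83 ± 0.23 on day 2 (adjusted p = 0.0445). Without both doubted libraries the calls of Plaur (0.77, adjusted p = 0.0566), F2r (0.84, adjusted p = 0.0722) and Plat (-0.53, adjusted p = 0.309) were lost. With 1 library left out, Plaur and F2r were called in 15 of 20 fits, Tfpi2 and Thbd in 16 and Plat in 8, and the 4 day 4 calls were each lost without day 4 replicate 2 and without day 4 replicate 3.

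A pair of stress-related lists was read beside the early genes. Of 11 heat shock genes, Bag3 rose on day 2 (0.29 ± 0.08, adjusted p = 0.0425 by edgeR's quasi-likelihood test), and Bag3, Hspa8, Dnaja1 and Dnajb1 rose on day 4, by 0.41, 0.71, 0.46 and 0.29 on the log2 scale. These 4 of 11 are a share near the 35.3% of all tested genes on that day. The day 2 call of Bag3 was lost without both doubted libraries (0.32, adjusted p = 0.134) and without day 0 replicate 2 or 4 alone, and Dnajb1 was called on day 4 in 15 of 20 fits with 1 library left out. Of 8 genes responsive to glucocorticoids and fasting, 6 fell on day 4, beside 17.3% of all tested genes, and 6 also without both doubted libraries. Among them Mt1, a metallothionein, fell by 1.66 ± 0.29 (adjusted p = 0.00119), its relative Mt2 fell by 2.34 ± 0.48 (adjusted p = 0.00229) and Zbtb16 fell by 1.76 ± 0.48 (adjusted p = 0.0104). F3 was low in the same group, and no test linked these changes. The medians of the list's r to the mean of the 10 genes were -0.04 for heat shock genes and 0.24 for the glucocorticoid and fasting list.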

How the data were processed

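RNA of 20 libraries (5 groups of 4) was prepared with Illumina's TruSeq kit, per the labels. The deposited table holds the authors' raw counts of reads per gene; CASAVA, STAR, featureCounts, limma and R 3.0 are listed without roles in the submitters' processing notes, and build, annotation and strand setting are not given in the sources used here, so reads of overlapping or antisense genes cannot be told apart. Genes were filtered with filterByExpr (minimum count 10, minimum total 15), scaled by TMM and tested in 1 edgeR 4.0.16 quasi-likelihood fit of all libraries (R 4.3.3; 15 residual degrees of freedom, common biological coefficient of variation 0.209), with Benjamini-Hochberg adjustment over 15254 genes and calls under 0.05. P-values measure the spread between these samples. Log2 CPM used a prior count of 2, and exon lengths were taken from GENCODE (GRCm38). Alternatives were RLE, library totals alone, other filters, DESeq2 1.42.0, limma-voom 3.58.1, a replicate block, only the groups compared, both doubted libraries left out, each group left out for the correlations, and each library left out. The members and lists were chosen with earlier results of these data known. All members were named. From each list up to 4 called genes with the smallest adjusted p per comparison, or else up to 2 with the highest mean, could be named, together with the 10 genes nearest the members' mean and the 5 nearest Thbs1 and F3. The members of early lists nearest the mean (Klf4 and following) were singled out after their values were seen. A result that this rule would name is not reported here.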

Additional observations from a re-analysis of the deposited data

Results flagged for a closer look

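Within groups, 4 of the 50 combinations of gene and group held a library far from the other 3. The rule was a gap over the group's range above Dixon's critical value, taken on CPM and not on log2 CPM. Chance flags about 1 in 20 where values are independent and normally distributed. That rate may not hold for CPM or for genes that vary together, so the number of flags is not read against it. Fos stood at 50.2 CPM in day 14 replicate 1, where the next library held 10.1 CPM. Fosb stood at 9.92 CPM in day 6 replicate 2, next to 2.45 CPM. Egr1 stood at 39.6 CPM in day 2 replicate 4, next to 17.3 CPM, and at 40.1 CPM in day 4 replicate 2, next to 21.5 CPM. These are 4 different libraries, each highest of its group for 5 to 8 of the 10 genes. Jun was flagged for a difference between 2 days. All 4 day 14 libraries lay above the chow mean of log2 CPM and all 4 day 2 libraries below it. The difference between the 2 day means was 1.08 and was not tested. Both groups overlapped chow, and the day 2 change was small (-0.34 ± 0.24), so a fall of Jun on day 2 is not shown.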

How the results depend on the processing

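Counts of the 10 genes called were 1, 1, 0 and 0 on days 2, 4, 6 and 14, and 4 for any difference. The shares of all tested genes were 4.39%, 35.3%, 3.45% and 1.18%, and 19.6% for any difference. The choice of the 10 drew on these contrasts, so nothing is read from their counts, here or with libraries left out. On day 2 the count was 0 without the filter, with only the groups compared, without both doubted libraries and by limma-voom. On day 4 it was 2 (F3 and Ier2) with only the groups compared, on day 14 it was 2 by DESeq2 (Fosb and Jun), and for any difference it was 1 (Jun) without both doubted libraries and 2 (F3 and Jun) by limma-voom. Other early genes called on day 2 (3 in all) were 5 by library totals alone (2 higher, 3 lower), 0 without both doubted libraries and 10 by DESeq2. On day 6 (3 in all) they were 0 without the filter, with only the groups compared and without both doubted libraries, and 7 by DESeq2. On day 14 (3 in all) they were 1 without the filter, 0 with only the groups compared, 0 without both doubted libraries and 12 by DESeq2 (11 higher). For any difference (22 in all) they were 5 without both doubted libraries and 35 by DESeq2. Shares of all tested genes were taken for the main fit only, not for these settings or with libraries left out. Whether the shifts are particular to early genes is therefore not known, and their cause was not tested. The median percentile of the 10 genes' spread within groups, 72.5, was 76.9 without both doubted libraries, and the median r over 45 pairs, 0.29, was 0.12 without day 14 replicate 1 and day 6 replicate 2.

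With 1 library left out at a time, calls among the 10 genes ranged from 0 to 1 (day 2), 1 to 2 (day 4) and 2 to 5 (any difference); other early genes gave 1 to 10, 14 to 30, 0 to 6 and 0 to 4 calls on days 2, 4, 6 and 14, and 9 to 28 for any difference. The lowest counts of other early genes came without day 0 replicate 2 on days 2, 6 and 14 and without day 4 replicate 4 on day 4 and for any difference. The 1 call of day 2, that of Thbs1, a gene chosen with its low day 2 level known, was lost in several fits. These were the fits without day 0 replicate 2 or 4 or day 2 replicate 1, 3 or 4. Ier2 on day 4 was called without day 4 replicate 1 (log2 change 0.57) and without day 6 replicate 2 (0.45).

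Libraries with the same replicate number did not deviate together: their correlation across genes with the same-numbered chow library was 0.02 to 0.28, -0.05 to 0.04, -0.12 to 0.16 and 0 to 0.21 in order of day, and 1, 0, 2 and 2 of 4 correlated best with their own number. With the replicate block, other early genes called were 6, 1 and 5 on days 2, 6 and 14, again with no share of all tested genes taken. Reads limit Fosb, Fos and Atf3 most, at 3, 5 and 6 reads in the shallowest library.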
